A study of Homo sapiens with 6 samples.

Results

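The genes that load peptides onto MHC class I molecules were examined in the human cell line HK2, which derives from the proximal tubule of the kidney, after siRNA knockdown of OCRL, a phosphoinositide phosphatase of endosomes whose loss causes Lowe syndrome. The members were chosen by gene symbol: HLA-B, HLA-C, HLA-E, B2M, TAP1, TAP2, TAPBP, PSMB8 and PSMB9. They were represented by 20 of the 22215 probe sets tested, and the 9 genes were among 11963 that had a probe set with a single symbol. Probe sets annotated to several HLA class I genes were also sought, and 0 were found. Knockdown cells were transfected with OCRL siRNA and the control cells with a non-targeting siRNA. Both were transfected with Dharmafect 4 at 30% confluence and kept for 96 h, and both grew in DMEM F12 with insulin, transferrin and selenium. Each group held 3 arrays from independent experiments, and that small number of arrays sets the precision. All arrays come from 1 cell line, whose own HLA type was not used here.

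MHC class I molecules show peptides from inside the cell to cytotoxic T cells. Each consists of a heavy chain, such as HLA-B, HLA-C or HLA-E, and the light chain β2-microglobulin, encoded by B2M. The peptides are cut by the proteasome, carried into the endoplasmic reticulum by the TAP1-TAP2 transporter and loaded with the help of tapasin, encoded by TAPBP. Interferons raise many of these genes, and they induce the catalytic subunits PSMB8, PSMB9 and PSMB10, which take the place of PSMB5, PSMB6 and PSMB7 in new proteasomes and form the immunoproteasome.

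Of the 9 members, the immunoproteasome genes PSMB9 and PSMB8 changed most after OCRL knockdown: PSMB9 rose 2.39-fold and PSMB8 1.60-fold. TAP1 rose 1.15-fold, a call lost in 7 of 12 alternatives. None of the 7 probe sets of HLA-B and HLA-C was called, at limma adjusted p of 0.0612 to 0.919 (unadjusted p was under 0.05 for 2), and neither were the 2 probe sets of B2M. A probe set was called at an adjusted p under 0.05 in limma, with Benjamini-Hochberg adjustment over all 22215. Of the 20 member probe sets, 4 were higher, 1 was lower and 15 were not called, so 25% were called, against 23.1% of all probe sets. The share called higher was 20%, against 13.2% of all probe sets, and 9.89% of all were called lower. The count of 4 higher fell to 2 without control replicate 1 or 2, without OCRL siRNA replicate 2 or 3, after quantile normalisation and after median centring. Taken as the brightest probe set of each gene, 3 of the 9 members were higher and 0 lower (5 of the 9 had an unadjusted p under 0.05), with 26.0% of all 11963 genes called, 15.5% higher and 10.5% lower. The groups did not overlap in 11 of the 20 member probe sets, against 40.7% of all probe sets. Knockdown arrays lay above all control arrays in 8 (21.8% of all probe sets) and below them in 3 (18.9%). The median log2 difference was 0.04 over the member probe sets and -0.007 over all. As a set, the member probe sets were thus called about as often as the rest of the array.

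The letters of the members' promoters are given here because several members share an interferon-type element, the kind of site bound by interferon regulatory factors, and because PSMB9 and TAP1 start back to back. The sequences are RefSeq windows (GRCh38.p14) that run from 250 bases before to 50 bases after a gene's start, written 5′ to 3′ on the strand of the gene. Capitals mark matches, on either strand, to GAAA and a further GAAA after any 2 bases, or to a shorter form, GAANNGAAA, with overlapping matches joined. The windows of TAP1 and PSMB9 up to their starts were as follows.
TAP1, chr6:32853705-32853954, minus strand: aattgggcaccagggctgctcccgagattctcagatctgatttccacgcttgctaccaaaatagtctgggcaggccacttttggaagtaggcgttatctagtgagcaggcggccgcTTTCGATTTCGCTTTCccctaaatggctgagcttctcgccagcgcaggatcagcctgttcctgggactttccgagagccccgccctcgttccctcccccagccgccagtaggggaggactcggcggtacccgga
PSMB9, chr6:32853942-32854191, plus strand: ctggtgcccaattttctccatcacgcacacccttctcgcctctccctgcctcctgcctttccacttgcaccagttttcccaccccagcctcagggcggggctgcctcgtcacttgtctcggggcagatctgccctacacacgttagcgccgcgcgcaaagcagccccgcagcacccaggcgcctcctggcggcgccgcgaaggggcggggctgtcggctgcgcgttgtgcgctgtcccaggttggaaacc
The starts of these 2 genes lie 488 bases apart on opposite strands. The capitals in the TAP1 window lie between them, 119 bases from the TAP1 start and 354 bases from the PSMB9 start. No match was found in the PSMB9 window itself, which says only that these letters are not in it.

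The other windows with a match are shown as 30 bases around it, for comparison of the element among members that rose and members that did not pass the test.
PSMB8, chr6:32844030-32844059, minus strand: tctgtggcTTTCGCTTTCACTTCctcctcc
PSMB10, chr16:67936852-67936881, minus strand: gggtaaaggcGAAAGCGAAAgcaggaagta
TAP2, chr6:32838781-32838810, minus strand: tggctgggGAAGCGAAAGCGAAAgctgccc
TAPBP, chr6:33314076-33314105, minus strand: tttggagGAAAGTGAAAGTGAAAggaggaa
B2M, chr15:44711366-44711395, plus strand: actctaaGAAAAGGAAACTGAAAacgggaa
HLA-B, chr6:31357316-31357345, minus strand: actcccctgagTTTCACTTCttctcccaac
HLA-C, chr6:31272225-31272254, minus strand: actcccctgagTTTCACTTCtcccaacctg
Of the 8 members with a window in the table, 7 held a match, 5 of them to the longer form and 2, HLA-B and HLA-C, to the shorter form alone. TAP1 and PSMB8 have 2 windows each, and 1 of them held the match. Either form was found in 10.6% of the 35116 windows of all genes. The first base of the match lay 4 bases before the PSMB8 start, 20 before that of TAPBP, 63 before that of TAP2, 144 before that of B2M, 151 before that of HLA-C and 155 before that of HLA-B. PSMB10, an immunoproteasome gene outside the member list, held 1 match, 21 bases before its start. TGACG and CCAAT, searched on both strands as the cores of the X2 and Y boxes of MHC promoters, occurred together in 4 members, HLA-B, HLA-C, B2M and PSMB9, and in 8.69% of all windows. A κB consensus was found in 5 members and in 11.3% of all windows. The element was present in PSMB8 and TAP1, which were called higher, though the call of TAP1 was lost in 7 of 12 alternatives. It was also present in members whose brightest probe set was not called (B2M, TAP2, TAPBP, HLA-B and HLA-C). The window of PSMB9, the member that rose most, held no match, and HLA-E had no window. A part of the element in any of the changes was not tested.

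The knockdown itself was checked in OCRL. On the log2 scale its brighter probe set was at 7.52, 7.49 and 7.40 on the knockdown arrays, against 9.49, 9.48 and 9.51 on the control arrays (log2 difference -2.02, SE 0.048, limma adjusted p = 1.24e-05). Its dimmer probe set fell by 1.01. The arrays had medians of 7.27 to 7.30 in the OCRL siRNA group and 7.23 to 7.24 in the control group. Over all probe sets 5137 were called, of which 57.2% were higher as deposited, 52.2% after quantile normalisation and 42.0% after the arrays were centred on their medians, which moved the median difference over all probe sets from -0.007 to -0.053. The epithelial markers KRT18 and KRT8 were at 13.34 and 11.44 in control cells, and KRT8 was 0.38 lower in knockdown cells, while the proximal tubule markers LRP2, CUBN, AQP1 and SLC34A1 lay between 3.99 and 5.63 in control cells, near or below the lower quartile of 5.23 or more of each array. Of 12 epithelial and proximal tubule markers, 5 were lower and 1 higher, against 10.5% and 15.5% of all genes. The lower ones were CDH6 (log2 difference -1.04), EPCAM (-0.81), KRT19 (-0.38), KRT8 (-0.38) and PAX8 (-0.29). The higher one was the proximal tubule marker ANPEP (0.56, limma adjusted p = 0.0222), below the lower quartile in both groups. The summed level of the 12 markers on the linear scale was 23190 to 23783 in knockdown cells and 28688 to 29587 in control cells. The part of this fall in the results below was not tested. In bulk RNA, fewer cells of a type and less RNA per cell cannot be told apart. Of 12 leukocyte markers, 6 lay below the lower quartile and 0 were called by limma (at an unadjusted p below 0.05, also 0), and their summed level was 460 to 496 in knockdown cells and 452 to 499 in control cells. Of 5 endothelial markers 0 were called (2 had an unadjusted p under 0.05), and of 5 fibroblast markers 1, LUM, was lower. The leukocyte antigen gene PTPRC was at 4.09 ± 0.03 in knockdown cells and 4.15 ± 0.13 in control cells (mean ± SD, n = 3). Both groups were transfected, but effects particular to the OCRL siRNA and effects of lower OCRL cannot be told apart.

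PSMB9 encodes the immunoproteasome subunit β1i. Its single probe set was at 10.53, 10.63 and 10.56 on the knockdown arrays, against 9.19, 9.33 and 9.42 on the control arrays. All knockdown values lay more than 1 log2 unit above the highest control value. The log2 difference was 1.26 (SE 0.068, 95% interval 1.10 to 1.42, limma adjusted p = 7.57e-05). PSMB8 encodes β5i, the subunit with chymotrypsin-like activity. It was at 10.81, 10.81 and 10.81 on the knockdown arrays, against 10.10, 10.13 and 10.17 on the control arrays. The 3 knockdown arrays were nearly equal, and the groups did not overlap (log2 difference 0.68, SE 0.041, 95% interval 0.58 to 0.78, adjusted p = 1.07e-04). An exact permutation test (two-sided) gave p = 0.10 for each gene, the smallest that 20 possible assignments of the arrays allow. Both calls held in every alternative run, with log2 differences of 1.20 to 1.31 for PSMB9 and 0.63 to 0.70 for PSMB8.

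**Figure D1:**
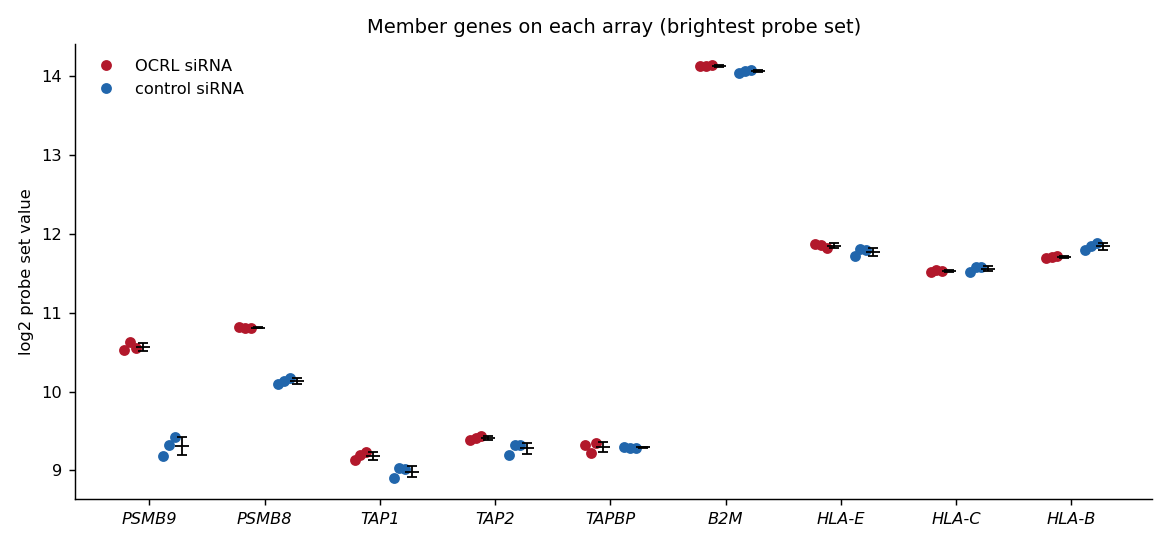
Values of the brightest probe set of each member on each array, on the log2 scale, with OCRL siRNA arrays left of control siRNA arrays. Points are single arrays, and dashes with bars are means ± SD of 3 arrays. PSMB9 and PSMB8 stand apart between the groups, and levels of different genes are not comparable because their probes differ.

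The remaining immunoproteasome subunit, PSMB10 (β2i), rose as well, and the constitutive subunits were not called. PSMB10 was at 10.86, 10.83 and 10.84 on the knockdown arrays, against 10.26, 10.35 and 10.36 on the control arrays (log2 difference 0.52, SE 0.046, adjusted p = 4.32e-04). PSMB6, the subunit that PSMB9 replaces, had a log2 difference of 0.14 (95% interval 0.02 to 0.26, adjusted p = 0.0864) and was called in 2 of 13 alternatives. PSMB5, replaced by PSMB8, had a log2 difference of -0.03 (95% interval -0.13 to 0.07), and PSMB7, replaced by PSMB10, had one of -0.06 (95% interval -0.16 to 0.05). The change of each immunoproteasome gene was then set against that of its counterpart on the same array. The log2 ratio of PSMB9 to PSMB6 was higher in knockdown cells than in control cells by 1.11 (SE 0.036, 95% interval 1.01 to 1.21). That of PSMB8 to PSMB5 was higher by 0.71 (SE 0.032, 95% interval 0.62 to 0.80), and that of PSMB10 to PSMB7 by 0.57 (SE 0.018, 95% interval 0.53 to 0.62). In each of these 3 ratios all 3 knockdown arrays lay above all 3 control arrays, with exact permutation p = 0.10 (0.10 after adjustment over the 8 ratios computed), the smallest the design allows. Leaving out each array in turn gave 1.09 to 1.15, 0.68 to 0.72 and 0.56 to 0.59 for these ratios.

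**Figure D2:**
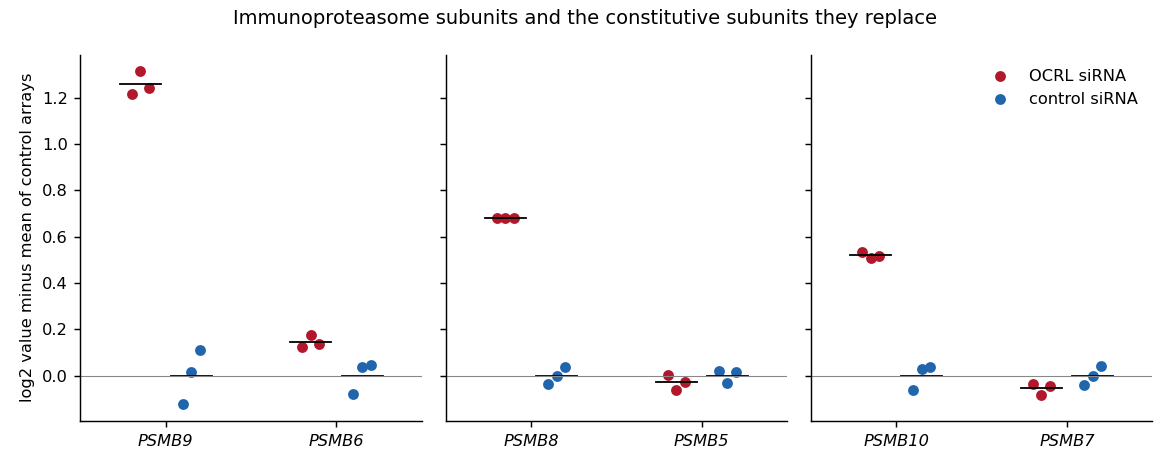
Log2 values of 3 immunoproteasome genes, each beside the constitutive gene it replaces, after subtraction of the mean of the control arrays. Points are arrays and black lines are group means, with OCRL siRNA left of control siRNA. The immunoproteasome genes lie 0.52 to 1.26 above their control means in knockdown cells, and the constitutive genes -0.06 to 0.14.

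The proteasome activator subunit PSME1 (PA28α), a further interferon-induced part of this machinery, was at 12.03, 12.03 and 12.04 on the knockdown arrays, against 11.76, 11.86 and 11.88 on the control arrays. It rose by 0.20 (SE 0.049, adjusted p = 0.0271), and the call was lost in 6 of 13 alternatives, at adjusted p up to 0.0872. PSME2, the partner of PSME1, was not analysed here. Of the 7 measured genes of the other proteasome β subunits and PA28, 2 rose, 0 fell and 5 were not called, with a median log2 difference of -0.03 over the list and of 0.00050 over all genes.

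TAP1 and TAP2 encode the 2 chains of the peptide transporter. TAP1 was at 9.13, 9.20 and 9.23 on the knockdown arrays, against 8.90, 9.03 and 9.01 on the control arrays. The groups did not overlap, and the log2 difference was 0.21 (SE 0.054, 95% interval 0.08 to 0.34, adjusted p = 0.0342). The call of TAP1 was lost in 7 of 12 alternatives, at adjusted p up to 0.115, among them quantile normalisation (0.0801), median centring (0.0794) and the removal of control replicate 1 (0.0623), 2 (0.0577) or 3 (0.0720) or of OCRL siRNA replicate 2 (0.0953) or 3 (0.115). The brightest TAP2 probe set was at 9.38, 9.41 and 9.44 on the knockdown arrays, against 9.20, 9.33 and 9.32 on the control arrays (log2 difference 0.13, 95% interval 0.00 to 0.25, adjusted p = 0.131). All knockdown arrays were again above all control arrays, but the probe set was called only when dim probe sets were left out (adjusted p = 0.0426). The other TAP2 probe sets went different ways. A dim one fell, at 5.66, 5.74 and 5.75 on the knockdown arrays, against 5.91, 6.03 and 5.90 on the control arrays (log2 difference -0.23, SE 0.054, adjusted p = 0.0231). That call was lost in 5 of 12 alternatives: without control replicate 2 (0.0686), without OCRL siRNA replicate 1 (0.0734), 2 (0.0559) or 3 (0.0570), and with trend and robust settings (0.0762). The last TAP2 probe set, below the lower quartile in both groups, had a log2 difference of 0.10 (adjusted p = 0.463) and was called without control replicate 3 (0.20, adjusted p = 0.0498). The probe sets of TAP2 thus gave no single direction.

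PSMB9 and TAP1 start close together, but their changes differed in size. The log2 ratio of PSMB9 to TAP1 was 1.05 higher in knockdown cells than in control cells (SE 0.049, 95% interval 0.92 to 1.19, exact permutation p = 0.10). All knockdown arrays lay above all control arrays in this ratio, and it was 1.03 to 1.09 when an array was left out.

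Tapasin, the bridge between the transporter and class I molecules, showed no called change. The brightest TAPBP probe set was at 9.33, 9.22 and 9.35 on the knockdown arrays, against 9.30, 9.28 and 9.29 on the control arrays, and the groups overlapped (log2 difference 0.01, 95% interval -0.11 to 0.12, adjusted p = 0.935). The dimmer one was at 6.973, 7.002 and 6.933 on the knockdown arrays, against 6.84, 6.87 and 6.62 on the control arrays. It did not overlap between groups but was not called (log2 difference 0.19, adjusted p = 0.108). B2M, the light chain of all class I molecules, had log2 differences of 0.07 (95% interval -0.02 to 0.16, adjusted p = 0.266) and 0.03 (95% interval -0.09 to 0.16, adjusted p = 0.708) in its 2 probe sets. The brighter one was at 14.13, 14.13 and 14.15 on the knockdown arrays, against 14.05, 14.07 and 14.08 on the control arrays, close to the top of the range of the arrays (15.08), where signal can be compressed. That probe set was called higher in 1 of 12 alternatives, with trend and robust settings (adjusted p = 0.0238).

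**Figure D3:**
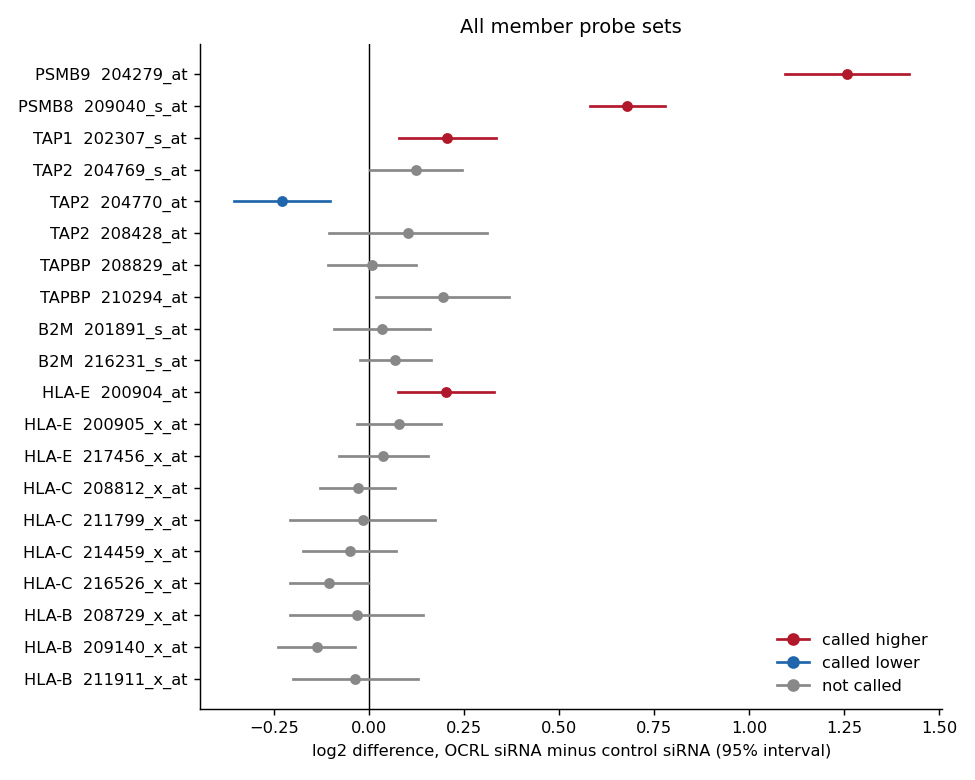
Log2 differences (OCRL siRNA minus control siRNA) of the 20 member probe sets, as points with 95% intervals from limma. Red marks probe sets called higher, blue lower and grey not called. PSMB9 and PSMB8 lie at 1.26 and 0.68, and the other 18 between -0.23 and 0.21.

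The classical heavy chain genes HLA-B and HLA-C, which present peptides to cytotoxic T cells, showed no rise. HLA-B at its brightest probe set was at 11.70, 11.71 and 11.72 on the knockdown arrays, against 11.80, 11.85 and 11.88 on the control arrays. All knockdown values were lower, but the difference of -0.14 (SE 0.043, 95% interval -0.24 to -0.04) was not called (adjusted p = 0.0612). It was called lower in 6 of 12 alternatives, among them quantile normalisation (0.0499), median centring (0.0259) and the removal of control replicate 1 (0.0437). The other HLA-B probe sets had log2 differences of -0.03 and -0.04, with overlapping groups. The brightest HLA-C probe set was at 11.52, 11.55 and 11.53 on the knockdown arrays, against 11.52, 11.58 and 11.58 on the control arrays (log2 difference -0.03, 95% interval -0.13 to 0.07, adjusted p = 0.684). The other HLA-C probe sets ran from -0.10 to -0.02, and the lowest of them was called in 3 of 12 alternatives. Over the 7 probe sets of both genes the upper limits of the 95% intervals reached at most 0.18, so rises as large as that of PSMB8 lay outside all of them.

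HLA-E, which presents signal peptides of other class I chains to natural killer cells, was measured by 3 probe sets. One of them was at 9.58, 9.63 and 9.65 on the knockdown arrays, against 9.33, 9.46 and 9.47 on the control arrays, and rose by 0.20 (SE 0.053, 95% interval 0.08 to 0.33, adjusted p = 0.0347). The call was lost in 8 of 13 alternatives, at adjusted p up to 0.114, including the removal of each of the 6 arrays in turn, quantile normalisation (0.0877) and median centring (0.0815). The other HLA-E probe sets had log2 differences of 0.08 (95% interval -0.03 to 0.19, adjusted p = 0.284) and 0.04 (95% interval -0.08 to 0.16, adjusted p = 0.643). The log2 ratio of the brightest HLA-E probe set to that of HLA-B was 0.22 higher in knockdown cells (SE 0.028, 95% interval 0.14 to 0.29, exact permutation p = 0.10). Neither of these probe sets was called by itself. Both have probes that also match other transcripts, so signal shared between class I genes is uncertain in this ratio.

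The called probe set of HLA-E was the single one of the 10 member HLA probe sets whose name does not end in _x_at, an ending the platform gives to probe sets whose probes also match other transcripts. Class I genes are closely alike in sequence, so signal shared between them is uncertain for the remaining 9. HLA-F, HLA-G and HLA-J, other genes and pseudogenes of the family, had 7 such probe sets. Over all 16, log2 differences ran from -0.14 to 0.08, limma called 0, and the unadjusted p was under 0.05 in 2. Control replicate 1 was the lowest of the 3 control arrays in 16 of 16. That order was not particular to them: it also held for PSMB9, TAP1 and PSMB10, but not for ERAP1 or IRF1. Its share over all probe sets was not computed.

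The members PSMB8, PSMB9, TAP1 and TAP2 are neighbours in the class II region of chromosome 6. In RefSeq the order of protein-coding genes there is HLA-DOB, TAP2, PSMB8, TAP1, PSMB9, HLA-DMB, HLA-DMA and BRD2, and this stretch was chosen after the values were seen. HLA-DMB, the neighbour of PSMB9 and a chain of the editor of class II peptides, was at 7.83, 7.80 and 7.93 on the knockdown arrays, against 7.18, 7.21 and 7.28 on the control arrays. It rose by 0.63 (SE 0.055, adjusted p = 4.13e-04). HLA-DMA, which encodes the partner chain, had a log2 difference of 0.11 (SE 0.118, adjusted p = 0.578), and the flanking genes HLA-DOB and BRD2 had differences of -0.04 and 0.00. The 4 called genes, PSMB8, TAP1, PSMB9 and HLA-DMB, were consecutive, and 15.5% of all genes were called higher. TAP1, whose call was lost in 7 of 12 alternatives, had the smallest difference of them, at 0.21. PSMB8, TAP1 and PSMB9 were on the member list beforehand, and whether called genes gather in this stretch was not tested.

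**Figure D4:**
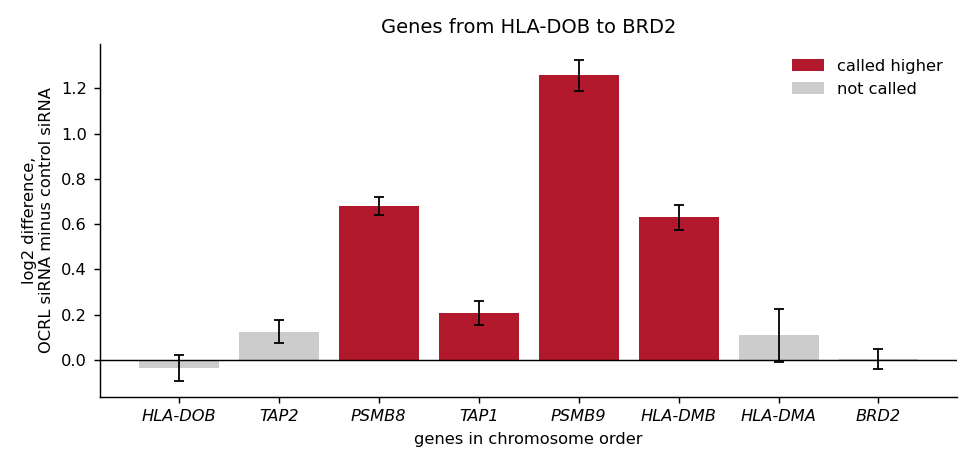
Log2 differences (OCRL siRNA minus control siRNA) of 8 neighbouring genes in chromosome order, by the brightest probe set of each. Bars start at 0, error bars are the moderated SE, red marks genes called higher and grey genes not called. PSMB8, TAP1, PSMB9 and HLA-DMB were called, at 0.68, 0.21, 1.26 and 0.63.

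Genes that trim and load class I peptides rose more often than they fell. Of 9 measured, 5 rose, 0 fell and 4 were not called. Of all genes 26.0% were called, 15.5% higher and 10.5% lower. The median log2 difference was 0.15 over the list and 0.00050 over all genes. The aminopeptidase genes ERAP1 and ERAP2, whose products cut peptides to class I length, rose together. ERAP2 was at 10.978, 11.023 and 11.001 on the knockdown arrays, against 10.41, 10.46 and 10.44 on the control arrays (log2 difference 0.56, SE 0.041, adjusted p = 2.03e-04). ERAP1 was at 10.35, 10.32 and 10.46 on the knockdown arrays, against 9.94, 9.79 and 9.76 on the control arrays (log2 difference 0.54, SE 0.066, adjusted p = 0.00155). In ERAP1, 2 of 5 probe sets were called, each higher. TAPBPL, a tapasin relative that edits peptides, rose by 0.38 in 1 of 2 probe sets (SE 0.082, adjusted p = 0.0159), with the call lost in 3 of 11 alternatives (adjusted p up to 0.0571). The chaperone gene CALR rose by 0.19 (SE 0.038, adjusted p = 0.0119), by 2 of its 3 probe sets. PDIA3, named after its value was seen, rose by 0.15 (SE 0.041, adjusted p = 0.0369), with the call lost in 8 of 13 alternatives. CANX, a chaperone of free heavy chains, had a log2 difference of -0.04 (adjusted p = 0.529) in its brightest probe set and of 0.16 (adjusted p = 0.0732) and 0.11 (adjusted p = 0.130) in the others.

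Other class I and class I-like genes went both ways, with 1 of 13 higher, 1 lower and 11 not called, and a median of -0.04. MR1, which presents vitamin B metabolites to mucosal T cells, rose by 0.44 (SE 0.064, adjusted p = 0.00337), and 3 of its 5 probe sets were called higher. MICA, a stress ligand of natural killer cells, was at 9.47, 9.54 and 9.45 on the knockdown arrays, against 10.01, 10.08 and 10.12 on the control arrays (log2 difference -0.58, SE 0.050, adjusted p = 4.08e-04). The fall of MICA was called in 13 of 13 alternatives. Its relative MICB had a log2 difference of -0.03 (adjusted p = 0.661). HFE was not called by its brightest probe set (0.11, adjusted p = 0.420). Of its 13 probe sets 2 dimmer ones were called higher (0.56, adjusted p = 0.0104, and 0.30, adjusted p = 0.04998).

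**Figure D5:**
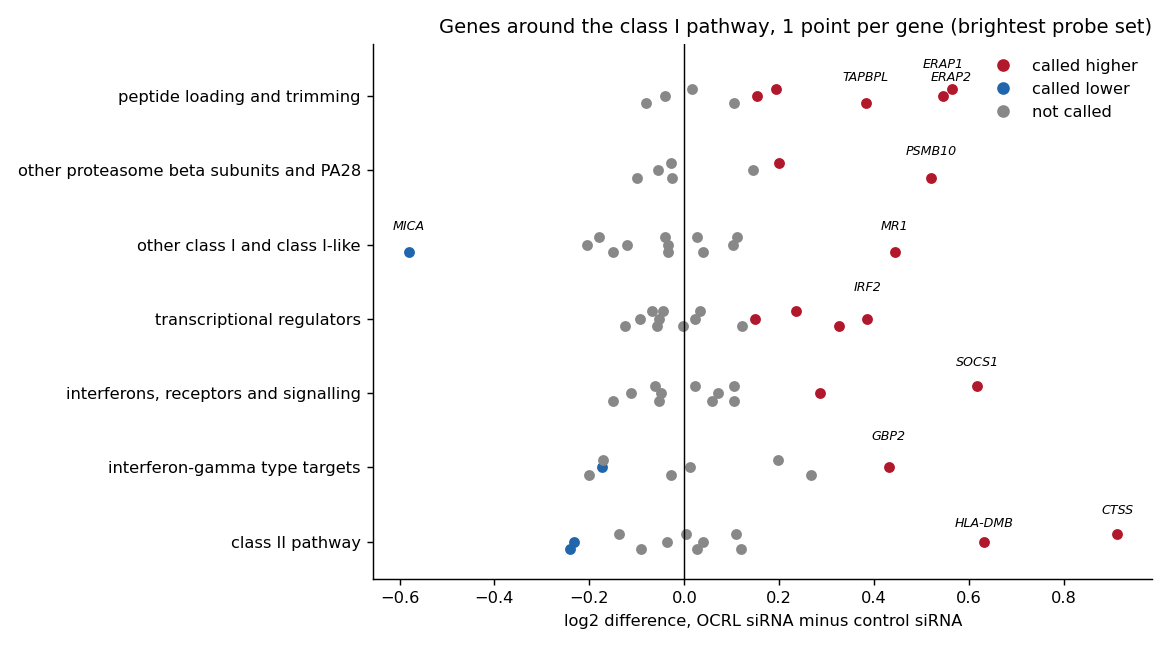
Log2 differences (OCRL siRNA minus control siRNA) of the genes of 7 lists around the class I pathway, 1 point per gene by its brightest probe set, with points spread vertically for sight. Red marks genes called higher, blue lower and grey not called. In the peptide loading and trimming list 5 of 9 genes were higher and 0 lower, against 15.5% and 10.5% of all genes.

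Among 14 measured regulators of class I transcription and interferon response, 4 rose, 0 fell and 10 were not called, with a median of 0.01. The interferon regulatory factor genes IRF2 (log2 difference 0.39, SE 0.057, adjusted p = 0.00367), IRF9 (0.33, SE 0.068, adjusted p = 0.0142) and IRF1 (0.24, SE 0.047, adjusted p = 0.0119) rose. IRF1 was at 8.02, 8.09 and 8.11 on the knockdown arrays, against 7.87, 7.80 and 7.83 on the control arrays, so the groups did not overlap. The call of IRF1 was lost without OCRL siRNA replicate 3 (adjusted p = 0.0511), and that of IRF9 without control replicate 3 or OCRL siRNA replicate 3 (up to 0.0557). RFX5, a subunit of the complex that binds MHC promoters, rose by 0.15 in 1 of 2 probe sets (SE 0.042, adjusted p = 0.0456), with the call lost in 10 of 13 alternatives. NLRC5, the class I transactivator, was not analysed here.

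Of 12 measured interferon, receptor and signalling genes, 2 rose, 0 fell and 10 were not called, with a median of 0.04. IFNGR2, a chain of the interferon-γ receptor, rose by 0.28 (SE 0.056, adjusted p = 0.0114). The dimmer probe set of IFNAR2 was called lower (log2 difference -0.28, adjusted p = 0.0216), against -0.06 (adjusted p = 0.350) in the brighter one. SOCS1, a feedback inhibitor of interferon signalling, rose by 0.62 (SE 0.131, adjusted p = 0.0154) in 1 of its 4 probe sets, with the call lost in 2 of 11 alternatives, without OCRL siRNA replicate 1 or 2 (adjusted p up to 0.0514). The interferon genes themselves were dim: IFNB1 was at 4.74 ± 0.14 in knockdown cells and 4.68 ± 0.05 in control cells, and IFNG at 3.79 ± 0.05 in knockdown cells and 3.84 ± 0.09 in control cells (mean ± SD, n = 3), all below the lower quartile. Of 8 genes typical of the interferon-γ response, 1 rose, 1 fell and 6 were not called, with a median of -0.01. GBP2, an interferon-induced GTPase, rose by 0.43 (SE 0.071, adjusted p = 0.00565). By dimmer probe sets, GBP1 was called higher (0.25, adjusted p = 0.0243) and ICAM1 lower (-0.22, adjusted p = 0.0208). Their brightest probe sets were not called. WARS1, a tRNA synthetase induced by interferon-γ, fell by 0.17 on the log2 scale in 1 of 2 probe sets (SE 0.048, adjusted p = 0.0416, against a difference of -0.0054 in the other), with the call lost in 8 of 13 alternatives.

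The class II pathway, which shows peptides from endosomes, went both ways, with 2 of 12 genes higher, 2 lower and 8 not called, and a median of 0.02. Besides HLA-DMB, the endosomal protease gene CTSS, which cuts the invariant chain, rose by 0.91 in 1 of 2 probe sets (SE 0.042, adjusted p = 4.73e-05). CD74, the invariant chain, fell by 0.24 (SE 0.053, adjusted p = 0.0182), with the call lost in 3 of 13 alternatives, without control replicate 3 or OCRL siRNA replicate 1 or 2 (adjusted p up to 0.0671). HLA-DPA1 fell by 0.23 in 1 of 3 probe sets (SE 0.063, adjusted p = 0.0382) at a level of 5.19 in knockdown cells and 5.42 in control cells, and that call was lost in 6 of 11 alternatives. HLA-DRA was at 4.97 ± 0.09 in knockdown cells and 4.96 ± 0.17 in control cells.

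The genes whose values followed PSMB9 most closely were sought over all 11963 genes, by the root mean square difference over the 6 arrays after subtraction of each gene's control mean. They were ETV5 (0.064 log2 units), NDRG1 (0.082), ARHGAP22 (0.090), KCNK3 (0.096) and PHLDA1 (0.101), with log2 differences of 1.23 to 1.30. Likeness here rests on the size of the group difference and on the same 6 arrays.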

How the data were processed

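Total RNA from HK2 cells was labelled with biotin and hybridised to Affymetrix arrays (per the labels' protocols), with 3 samples in each group and a single array for each. The deposited log2 values were made by the authors with affy and RMA, per the submitters' processing notes (the sources used here give no version). They ran from 2.91 to 15.08. RMA gives all arrays a like distribution, which means that a shift shared by most genes is removed, and it compresses differences at low signal. The 62 AFFX control probe sets of 22277 were left out. Genes were named from GEO's platform annotation: 19064 probe sets had 1 symbol, 1043 several and 2108 none, and Entrez identifiers matched RefSeq for 19052 and changed 0 symbols.

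The comparison used lmFit and eBayes of limma 3.58.1 under R 4.3.3, with no term besides group and Benjamini-Hochberg adjustment of two-sided p-values over 22215 probe sets (threshold 0.05). Differences are OCRL siRNA minus control siRNA. For values per gene, its brightest probe set over the 6 arrays was taken. Ratios of 2 genes were taken per array and tested exactly, and their intervals are t intervals from the pooled SD of the 3 arrays a group. The ratios and the promoter motifs were chosen after the values were seen. The members and the lists were chosen with earlier results of these data known. Of 87 genes in 7 pathway lists, 75 were measured under a name. Named were all members, up to 4 called genes a list with the smallest p, genes fixed by name and the 5 nearest to the member with the smallest p. PDIA3 and some uncalled genes of the lists were added once values were known. On simulated data the script was tested first. Alternatives are given at the end. Python 3.11.15 and matplotlib 3.10.9 drew the figures.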

Additional observations from a re-analysis of the deposited data

How the results depend on the processing

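The fall of OCRL and the rises of PSMB8, PSMB9, PSMB10, ERAP1, ERAP2, HLA-DMB, CTSS, IRF2, IFNGR2, GBP2, MR1 and CALR and the fall of MICA were called in every alternative in which their probe set was tested. The counts of calls among the members, 4 higher and 1 lower, depended on small differences near the threshold. Leaving out 1 array gave 2 to 3 higher and 0 to 2 lower, and 3576 to 4898 probe sets called overall. Quantile normalisation gave 2 higher and 2 lower, and median centring 2 higher and 3 lower. Trend and robust settings and the removal of dim probe sets each gave 5 higher and 2 lower, and array weights 4 higher and 2 lower. Without probe sets ending in _s_at or _x_at, which left 6 of the members' probe sets and not the OCRL one, 2 were higher. In that setting 2348 probe sets were called, out of fewer tested, so this count is not comparable with the others. A minimum of 1.5-fold left 806. The direction turned in 10 of 243 comparisons of members, in probe sets that were not called in either setting: without 1 array, an HLA-C probe set ranged from -0.107 to 0.038, 2 HLA-B probe sets from -0.110 to 0.018 and from -0.108 to 0.016, and TAPBP from -0.016 to 0.046. TAPBP was at -0.012 after quantile normalisation and at -0.038 after median centring, and HLA-E and B2M were at -0.0077 and -0.012 after centring. The cause was not tested, other than that centring moved the median of all probe sets to -0.053. Alternatives for genes outside the member list and for the ratios were chosen after seeing the data. The groups share replicate numbers in the titles. Deviations of same-numbered arrays correlated at 0.142, 0.123 and -0.009, and those of differently numbered arrays at -0.176 to 0.096. The highest values were thus of same-numbered arrays, and these weak correlations do not settle whether arrays were paired. The numbers were not taken as pairs because the labels state no pairing. With the replicate number as a block, 4571 probe sets, 4 member probe sets higher and 1 lower were called.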
